A study of Mus musculus with 6 samples.

Results

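The genes described here are the numbered zinc finger protein (Zfp) genes of mouse that were expressed in germinal vesicle (GV) oocytes, 4-cell embryos or both. Members were chosen by their symbol, Zfp followed by digits only, and by a mean of at least 1 FPKM (fragments scaled to transcript length and library size) over 6 libraries, after FPKM values were summed per symbol. Zfp42, Zfp57 and Zfp352 were left out by the rule. It took 230 of the 23308 symbols in the tables, out of 333 Zfp symbols, of which 100 fell under 1 FPKM and 7 of those were listed at 0 in every library. Just outside the threshold lay Zfp808 at 0.913 and Zfp934 at 0.987 FPKM, and just inside lay Zfp677 at 1.01 and Zfp101 at 1.03 FPKM. The threshold is itself a measured level and is taken over both stages, so a member that passed through 1 stage alone had to differ between stages. The GV mean was under 1 FPKM for 26 members and the 4-cell mean for 34, while 170 reached 1 FPKM in both.

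Each library was made from polyadenylated RNA of 60 oocytes or embryos on the ICR background. The females were 21 to 23 days old and had received the hormones PMSG and hCG, and for embryos they were mated. GV oocytes, which are fully grown and arrested before meiotic maturation, came from wild-type (WT) females in 2 libraries and from YAP-/- females in 2 libraries. 4-cell embryos gave 1 library from WT and 1 from YAP-/- females, labelled wild type and YAP-/-; Yap1-deleted respectively. Samples labelled YAP-/- are called YAP-null here. Neither the cells in which Yap1 was deleted nor the genotype of the fathers can be read from the labels, and the source field names the 4-cell samples as GV oocytes, so titles and stage fields were followed. By its title the series asks whether YAP, a coactivator restrained by the Hippo kinases, activates the early zygotic genome when supplied by the oocyte.

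Zinc finger proteins of the C2H2 kind bind DNA through rows of short modules, each folded around a zinc ion. Many in mouse carry a KRAB domain near the amino terminus. It recruits the corepressor TRIM28, which brings the histone H3 lysine 9 methyltransferase SETDB1 and HP1 proteins, and this machinery is known for silencing retroelements and guarding imprinted DNA methylation in the early embryo. The Zfp symbol also covers proteins of other kinds, such as the CCCH finger protein Zfp36 (tristetraprolin), which promotes decay of AU-rich mRNAs, and ribosome or splicing factors with 1 or few fingers.

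Upstream sequence is shown for examples among the members that fell and rose most. Its number of CpG dinucleotides varied from gene to gene, and the rising examples lay within the range of the falling ones. Each line gives the 150 bases before the transcription start, 5′ to 3′ on the gene's own strand, from RefSeq promoters of build GRCm38.p6, with CpG in capitals. Zfp108 and Zfp58 are the falling members with a KRAB domain, Zfp277 and Zfp692 the falling ones without. Zfp809 rose and has a KRAB domain, and Zfp622 and Zfp644 rose and are counted without it. Here and below, presence of the domain is by the score described further on.
Zfp108 (chr7:24254644-24254793, plus strand): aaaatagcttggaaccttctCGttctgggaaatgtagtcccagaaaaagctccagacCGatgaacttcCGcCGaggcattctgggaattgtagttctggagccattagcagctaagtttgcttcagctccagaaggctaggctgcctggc
Zfp58 (chr13:67500523-67500672, minus strand): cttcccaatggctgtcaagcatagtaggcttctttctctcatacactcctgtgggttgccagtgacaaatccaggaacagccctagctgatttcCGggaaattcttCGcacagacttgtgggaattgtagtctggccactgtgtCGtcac
Zfp277 (chr12:40445791-40445940, minus strand): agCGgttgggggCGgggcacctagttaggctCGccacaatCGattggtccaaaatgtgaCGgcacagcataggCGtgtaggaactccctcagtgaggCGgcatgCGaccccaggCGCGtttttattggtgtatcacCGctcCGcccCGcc
Zfp692 (chr11:58306919-58307068, plus strand): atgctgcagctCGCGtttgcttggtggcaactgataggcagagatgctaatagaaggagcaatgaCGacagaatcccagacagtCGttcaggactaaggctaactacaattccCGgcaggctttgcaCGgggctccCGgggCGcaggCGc
Zfp809 (chr9:22225553-22225702, plus strand): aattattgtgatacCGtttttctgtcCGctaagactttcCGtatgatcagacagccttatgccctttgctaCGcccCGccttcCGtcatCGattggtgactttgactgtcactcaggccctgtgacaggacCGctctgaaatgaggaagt
Zfp622 (chr15:25984216-25984365, plus strand): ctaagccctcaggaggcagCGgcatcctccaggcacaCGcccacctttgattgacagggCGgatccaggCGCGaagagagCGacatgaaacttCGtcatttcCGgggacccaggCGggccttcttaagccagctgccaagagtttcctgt
Zfp644 (chr5:106696831-106696980, minus strand): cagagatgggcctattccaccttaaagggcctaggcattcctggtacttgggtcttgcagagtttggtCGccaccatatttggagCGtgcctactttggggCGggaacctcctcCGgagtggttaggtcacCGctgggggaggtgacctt
These stretches held 4, 3, 13, 9, 8, 9 and 5 CpG in the order shown. In the full window of 250 bases before and 50 after the start the same promoters held 7, 5, 26, 17, 11, 17 and 10. A RefSeq promoter was matched by symbol for 188 members, and their median was 16 CpG per window, against 21 over 8560 genes of at least 1 FPKM and 7 over all 27025 reference promoters. Members with a KRAB domain had a median of 12 CpG (100 promoters) and those without 20 (87 promoters). By stage the medians lay closer, at 14 in 59 promoters of members lower in 4-cell embryos and 15.5 in 54 of members higher. The letters GGAATG, the core bound by TEAD factors, through which YAP acts, were searched on both strands (CATTCC on the other). They occurred in 13.8% of member windows, in 14.6% of all windows and in 11.6% of those of genes of at least 1 FPKM. By stage they were in 15.3% of the windows of members lower in 4-cell embryos, 7.41% of those higher and 17.3% of those not called. Zfp644 was the 1 of the 7 promoters shown whose window held them. A match is a string of letters and not a bound site.

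Yap1 itself was at 248 and 154 FPKM in the WT GV libraries and at 10.8 and 10.04 FPKM in the YAP-null ones. It was at 89.7 FPKM in the WT and 33.3 FPKM in the YAP-null 4-cell library, lower than WT but above the YAP-null oocytes. The GV libraries numbered 2 stood apart from those numbered 1 in both genotypes: 27 members were at least 2-fold higher in WT library 2 than in WT library 1 and 9 lower, and 38 were higher and 10 lower between the YAP-null pair. These are 11.7%, 3.91%, 16.5% and 4.35% of members, near or below the shares of all genes (14.9%, 6.35%, 16.3% and 8.03%). Among members with transcripts longer than the median of 3160 bases, the median difference of library 2 from library 1 was 0.32 (WT) and 0.29 (YAP-null) on the log2(FPKM + 1) scale. Among the shorter ones it was -0.01 in both. Markers of oocytes, 8 of 8 in the tables, summed to between 5873.8 and 8818.0 FPKM in GV libraries, to 148 in the WT and to 923 in the YAP-null 4-cell library. Markers of cleavage embryos, 6 of 6, summed to 496 to 623 FPKM in GV libraries, 3499.5 in the WT and 1793.0 in the YAP-null 4-cell library. The YAP-null 4-cell sums thus lay between those of the GV libraries and the WT 4-cell library. The cleavage sum rested mostly on Alppl2 (2094 and 908 FPKM in WT and YAP-null embryos) and Crxos1 (600 and 233 FPKM). These, Eif1a and Klf5 lay between, but Pou5f1 and Dppa5a did not. Pou5f1 was at 322 FPKM in the YAP-null embryo, above the WT embryo (207) and all GV libraries (161 to 298). Dppa5a was at 256 FPKM there, below the WT embryo (441) and all GV libraries (320 to 347). For other cells, 9 granulosa or cumulus markers summed to 39.7 to 48.7 FPKM in GV libraries, 180 in the WT and 94.0 in the YAP-null 4-cell library, of which Nr5a2 alone gave 179 and 92.1. Blood genes, mostly globins, summed to 0 to 3.71 FPKM in GV libraries, 93.5 in the WT and 25.9 in the YAP-null 4-cell library, with the leukocyte gene Ptprc at 0 in all GV libraries. The part of these cells in the results was not tested. Pooled material does not tell whether a lower level means fewer embryos with an RNA or less of it in each. FPKM gives a share of each library's RNA, not an amount per embryo, so a change in total RNA is not seen.

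The family was expressed at modest levels with a few strong members. The median member was at 3.79 to 5.09 FPKM across GV libraries, 3.75 FPKM in the WT and 4.54 FPKM in the YAP-null 4-cell library, below the median of all genes kept, which was 7.90 to 9.90 FPKM across the 6 libraries. Members held between 0.557% and 0.802% of the FPKM sum of a library. Zfp296, a partner of Klf4 in pluripotent cells, was the highest member in every library. Its level was 259 and 156 FPKM in WT and 266 and 154 FPKM in YAP-null GV oocytes, and 297 and 205 FPKM in the WT and YAP-null 4-cell embryos. The 4-cell values overlapped the oocyte values, and the stage difference of 0.29 ± 0.44 (SE) on the log2(FPKM + 1) scale did not pass the test (limma adjusted p = 0.598). After Zfp296, the highest in GV oocytes by mean were Zfp655, Zfp212, Zfp957, Zfp277 and Zfp828 (Champ1, which acts in chromosome alignment). In 4-cell embryos they were Zfp622, Zfp706, Zfp259, Zfp707 and Zfp639, so that Zfp296 was the 1 member named in both orders. Single values were precise to a median half-width of 9.99% to 16.7% of the deposited bounds at 10 FPKM or more, and to 23.1% to 37.8% between 1 and 5 FPKM. The number of mapped fragments is unknown.

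From oocyte to 4-cell embryo members fell and rose at least 2-fold in shares near those of all genes, in both genotypes. A change is the 4-cell value minus the mean of the GV libraries of that genotype, on the log2(FPKM + 1) scale, which understates the change of low genes. With 1 4-cell library per genotype it has no replicate check. In WT, 80 members (34.8%) fell, 82 (35.7%) stayed within 2-fold and 68 (29.6%) rose, where over all 11451 genes of at least 1 FPKM the shares were 35.4%, 32.0% and 32.6%. In YAP-null, 71 (30.9%) fell, 90 (39.1%) stayed and 69 (30.0%) rose, against 29.3%, 40.0% and 30.7% of all genes. The shares lie near those of all genes, so the split gives no result about the family as a whole. With median-ratio scaling 69 members fell and 76 rose in WT and 72 and 68 in YAP-null. With libraries rescaled to the same sum 94 fell and 61 rose in WT and 67 and 71 in YAP-null, so which count is larger depends on scaling. Shares of all genes were not counted under these scalings. As deposited, the median change was -0.33 in WT and -0.05 in YAP-null, with -0.14 and 0.00 over all genes. The same 57 members fell in both genotypes, 61 rose in both and 60 stayed in both, while 23 fell in WT alone, 14 in YAP-null alone, 7 rose in WT alone and 8 in YAP-null alone. No member rose in one genotype and fell in the other (0 of 230, and 45 of 11451 genes).

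**Figure D1:**
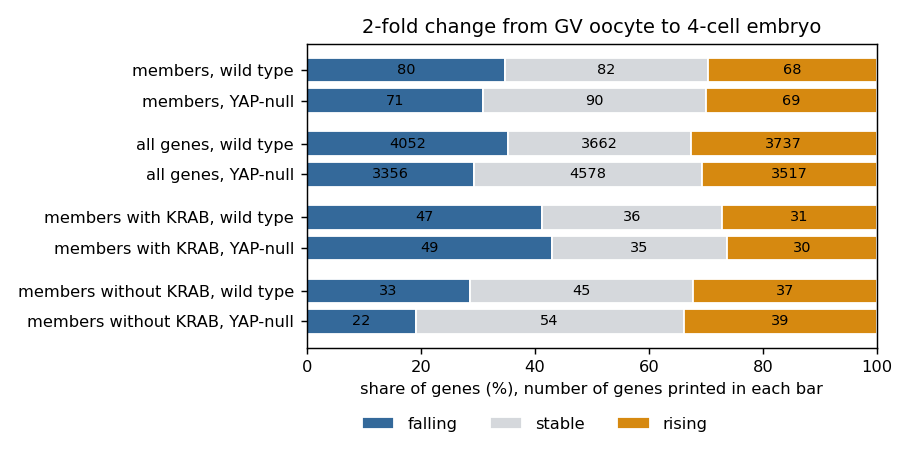
Shares of genes that fell, stayed within or rose by at least 2-fold (log2(FPKM + 1), 4-cell library minus GV mean) in each genotype. The x axis is the share in percent and the number of genes is printed in each bar segment. Members follow all genes closely (80 of 230 fell in WT). By KRAB score, 47 of 114 members counted with (41.2%) and 33 of 115 counted without the domain (28.7%) fell in WT, against 35.4% of all genes. The difference was not tested.

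Tested over all 6 libraries with genotype as a covariate (limma-trend on log2(FPKM + 1), Benjamini-Hochberg adjusted p under 0.05 over all genes), 69 members were lower and 65 higher in 4-cell embryos. The 134 members called are 58.3% of 230, and 56.0% of all genes were called, 27.8% lower and 28.2% higher. Differences of called members ran from -4.43 to -0.90 with a median of -1.94 among the lower, and from 0.85 to 6.55 with a median of 2.18 among the higher. Both 4-cell libraries lay below all 4 GV libraries for 92 members (40.0%, with 35.2% over all genes) and above them for 76 (33.0%, with 35.1%). All 134 called members were among these. The lower ones had a median level of 8.92 FPKM in oocytes and 1.36 FPKM in 4-cell embryos, and the higher ones 1.36 and 12.3 FPKM. A GV mean under 1 FPKM was found in 22 of the 65 higher members and a 4-cell mean under 1 FPKM in 28 of the 69 lower ones, which passed the level threshold through 1 stage. The labels do not tell whether libraries of a group came from separate females, so p-values measure only the spread between these libraries, which may be technical. Without the WT 4-cell library, which leaves 1 embryo library, the median difference was -0.71 in members with KRAB and 0.21 in those without. Over all genes it was 0. Without the YAP-null 4-cell library these medians were -0.69, -0.13 and -0.14. Which copy a fragment belongs to is uncertain for near-identical Zfp genes of 1 cluster, because no source used here states the counting rule.

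The largest fall was that of Zfp108, a KRAB zinc finger gene with 12 finger matches (mm9 chromosome 7, 25039813 to 25047463). It was at 58.2 and 63.4 FPKM in WT and 39.1 and 65.4 FPKM in YAP-null GV oocytes, and at 0.471 and 3.67 FPKM in WT and YAP-null 4-cell embryos. All 4 oocyte libraries were far above both embryo libraries, and the stage difference was -4.43 ± 0.51 (SE, limma adjusted p = 0.000859). Its neighbour Zfp61 in the same cluster was at 18.3 and 30.7 FPKM in WT oocytes, 17.1 and 28.4 FPKM in YAP-null oocytes, and 2.13 and 1.48 FPKM in WT and YAP-null embryos. The groups were again apart, by -3.10 ± 0.38 (limma adjusted p = 0.00112).

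Zfp277, a 4-finger protein known to bind the Polycomb protein BMI1, was among the most abundant members of the oocyte (mm9 chromosome 12, 41041633 to 41172377). Its level was 84.2 and 60.3 FPKM in WT and 114 and 57.3 FPKM in YAP-null oocytes, and 2.74 and 6.24 FPKM in WT and YAP-null embryos. The difference of -3.89 ± 0.42 passed the test (limma adjusted p = 0.000701), and no oocyte library came near an embryo library. Zfp58, with KRAB and 15 finger matches, was at 47.7 and 20.3 FPKM in WT and 58.8 and 22.1 FPKM in YAP-null oocytes and at 1.88 and 1.95 FPKM in embryos. Both embryos were alike and both oocyte libraries numbered 2 were lower than those numbered 1. The stage difference was -3.57 ± 0.53 (limma adjusted p = 0.0021).

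Zfp750, known as a regulator of epidermal differentiation, showed the widest spread between oocyte libraries among the 8 largest falls. Its level was 26.5 and 84.9 FPKM in WT and 25.7 and 94.6 FPKM in YAP-null oocytes, the libraries numbered 2 being high in both, and 0.822 and 11.7 FPKM in WT and YAP-null embryos. The difference of -3.36 ± 0.86 passed the test (limma adjusted p = 0.0166). The remaining large falls were Zfp692, Zfp653 and Zfp383, with differences of -3.29, -3.25 and -3.08. Zfp653 was lower in the YAP-null than in the WT embryo (1.87 and 5.23 FPKM), and Zfp692 and Zfp383 were higher (1.16 and 0.431, 4.27 and 1.08 FPKM).

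Zfp622 rose most. It encodes a factor of late ribosome assembly related to yeast Rei1 (mm9 chromosome 15, 25914121 to 25928237). It was at 1.13 and 0.520 FPKM in WT and 1.12 and 1.65 FPKM in YAP-null oocytes, and at 199.6 and 186 FPKM in WT and YAP-null embryos. From under 2 FPKM it became the member with the second highest level, in both genotypes alike, with a difference of 6.55 ± 0.34 (limma adjusted p = 0.000124).

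Zfp644, a partner of the histone methyltransferases G9a and GLP (mm9 chromosome 5, 107045760 to 107125849), was at 0.205 and 0.944 FPKM in WT and 0.296 and 1.63 FPKM in YAP-null oocytes. It was at 63.6 and 48.5 FPKM in WT and YAP-null embryos, a difference of 5.07 ± 0.44 (limma adjusted p = 0.000357). Zfp239 (Mok2), which binds both DNA and RNA, was listed at 0 in 3 oocyte libraries and at 0.133 FPKM in YAP-null library 1, and stood at 17.1 and 14.5 FPKM in embryos. It was thus all but absent from the oocyte tables and present in both embryos, with a difference of 4.02 ± 0.25 (limma adjusted p = 0.000154). Zfp644 and Zfp239 had GV means of 0.768 and 0.033 FPKM and passed the level threshold through the embryos alone. A higher embryo mean was therefore required of them by the rule, and their p-values are no independent support for a rise. Zfp668 and Zfp775 rose by 3.74 and 3.72 on the same scale. Zfp668 was at 16.3 and 19.02 FPKM and Zfp775 at 46.0 and 72.0 FPKM in WT and YAP-null embryos.

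**Figure D2:**
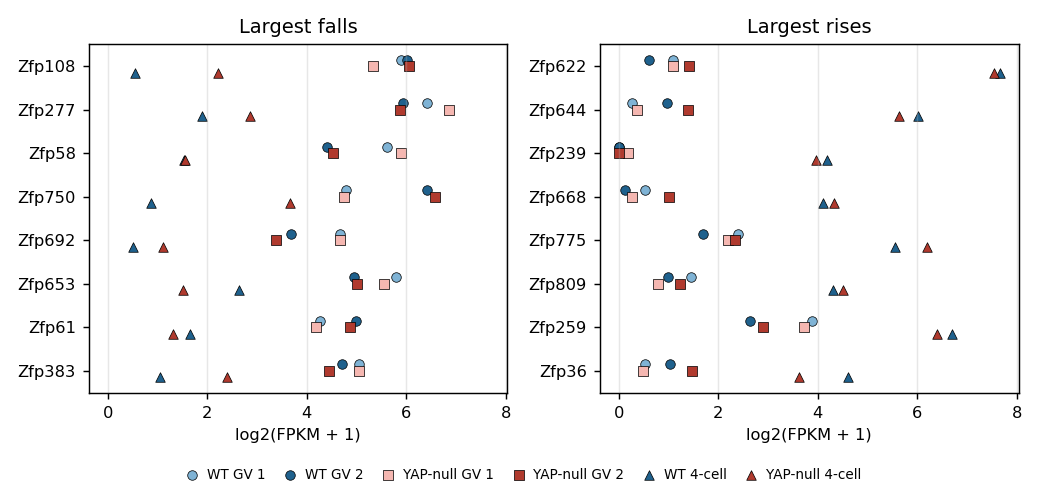
Levels of the 8 members with the largest falls (left) and the 8 with the largest rises (right). The x axis is log2(FPKM + 1), 1 point stands for 1 library, circles and squares are GV oocytes and triangles 4-cell embryos. Oocyte and embryo libraries do not overlap for any of the 16, and Zfp750 has its oocyte libraries farthest apart (25.7 to 94.6 FPKM). Members with a mean under 1 FPKM at 1 stage, such as Zfp239, had to differ between stages to be members.

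Among 9 measured members known to act on RNA or translation, 5 rose and 0 fell by the stage test (limma adjusted p under 0.05; background 28.2% and 27.8%). The list and the next ones were written with earlier results of these data known. Besides Zfp622, Zfp259 (Zpr1, a binding partner of elongation factor 1A) rose from 13.8 and 5.26 FPKM in WT and 12.2 and 6.47 FPKM in YAP-null oocytes to 102 and 83.2 FPKM in WT and YAP-null embryos. Zfp36 (tristetraprolin) rose from 0.450 and 1.03 FPKM in WT and 0.409 and 1.76 FPKM in YAP-null oocytes to 23.3 and 11.4 FPKM. Both genes had every embryo value above every oocyte value. Zfp36, with a GV mean of 0.913 FPKM, passed the level threshold through the embryos alone, so a higher embryo mean was required of it. Zfp346 (JAZ, a double-stranded RNA binding protein) reached 10.4 and 24.4 FPKM in WT and YAP-null embryos from 1.14 to 3.29 FPKM in oocytes. Zfp106, an RNA-binding protein needed in motor neurons, was at 2.28 and 1.98 FPKM in oocyte libraries numbered 1 and 11.7 and 10.5 FPKM in those numbered 2, and at 45.7 and 42.5 FPKM in embryos. Its rise of 2.88 ± 0.73 passed the test with oocyte libraries more than 4-fold apart (limma adjusted p = 0.0164).

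The other 4 of this list did not pass. Zfp598, the ubiquitin ligase that marks collided ribosomes, was at 33.4 to 57.6 FPKM in oocytes and 76.2 and 73.4 FPKM in embryos (difference 0.70 ± 0.35, limma adjusted p = 0.128). Its embryo values both lay above the oocyte range. Zfp207 (BuGZ, which binds spindle microtubules and Bub3) was at 73.1 and 54.3 FPKM in WT oocytes, 74.7 and 55.1 FPKM in YAP-null oocytes, 95.1 FPKM in the WT and 54.9 FPKM in the YAP-null embryo. The splicing factors Zfp830 and Zfp326 had differences of -0.49 and 0.54. Zfp830 was at 16.3 to 24.4 FPKM in oocytes and 13.7 and 14.8 FPKM in embryos.

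Of 10 KRAB zinc finger genes listed for known silencing of retroelements or imprints, 7 were measured, of which 2 rose and 1 fell (limma adjusted p under 0.05). Over all genes 28.2% were higher and 27.8% lower. Zfp809, which silences murine leukaemia virus and related elements, was at 1.73 and 0.981 FPKM in WT and 0.738 and 1.35 FPKM in YAP-null oocytes and rose to 18.9 and 21.8 FPKM in WT and YAP-null embryos. Zfp568, the repressor of a placental Igf2 transcript, rose from 5.70 and 6.49 FPKM in WT and 6.39 and 7.04 FPKM in YAP-null oocytes to 59.7 and 40.2 FPKM. For both genes all oocyte libraries were close together and far below the embryos. The differences were 3.30 ± 0.33 (limma adjusted p = 0.00057) for Zfp809 and 2.76 ± 0.33 (limma adjusted p = 0.000922) for Zfp568.

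Zfp708, known to bind the RMER19B retroelement, fell. It was at 13.7 and 12.7 FPKM in WT and 17.3 and 13.8 FPKM in YAP-null oocytes and at 2.64 and 0.796 FPKM in WT and YAP-null embryos, a difference of -2.58 ± 0.39 (limma adjusted p = 0.00229). Zfp445, which maintains imprinted methylation, was at 1.52 FPKM in both oocyte libraries numbered 1, at 9.34 and 9.004 FPKM in those numbered 2 and at 14.8 and 15.7 FPKM in embryos. Its difference of 1.68 ± 0.75 did not pass (limma adjusted p = 0.1), with embryo values above every oocyte value. Zfp932, Zfp961 and Zfp819 had differences of -0.97, -0.44 and 0.40 and did not pass either.

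Of 8 measured transcription factors linked to stem cells or early development, 5 rose and 0 fell (limma adjusted p under 0.05). Over all genes 28.2% were higher and 27.8% lower, and this list too was written with earlier results known. Zfp143, an activator of small nuclear RNA and many housekeeping genes, was at 10.1 and 13.01 FPKM in WT and 12.8 and 15.96 FPKM in YAP-null oocytes, and at 57.3 and 51.6 FPKM in WT and YAP-null embryos. Zfp217, a component of corepressor complexes in stem cells, went from 3.83 and 7.72 FPKM in WT and 3.81 and 7.94 FPKM in YAP-null oocytes to 42.6 and 29.0 FPKM. Zfp335, a part of a histone H3 lysine 4 methyltransferase complex, went from 3.69 to 8.29 FPKM over oocyte libraries to 34.2 and 30.5 FPKM. These 3 genes had rises of 2.01, 2.47 and 2.35. The pluripotency factor Zfp281 rose less, by 1.41 ± 0.37 (limma adjusted p = 0.0189), and Zfp148 by 0.85 ± 0.30 (limma adjusted p = 0.0489), which did not pass with libraries rescaled to the same sum (0.0801) or with quantile normalization (0.0744). Zfp296, Zfp423 and Zfp703 did not pass.

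Members with a KRAB domain and members without it divided into different counts of falling and rising genes. The domain was scored in reference proteins as the best match to a 37-position consensus of the KRAB A box, and a protein with at least 16 identical positions was counted. Scores under this ran up to 13. The threshold and the split were chosen after the values were seen. Of 229 members with a matched protein, 114 reached this score and are called members with KRAB, and 115 did not. A lower score does not show that the domain is absent, so the 115 may include divergent KRAB proteins. Of the 114, 46 fell and 28 rose by the stage test, with a median difference of -0.70. Of the 115, 23 fell and 37 rose, with a median of 0.08. Over all genes 27.8% fell and 28.2% rose, with a median of -0.10. In WT, 47 members with (41.2%) and 33 without KRAB (28.7%) fell at least 2-fold, against 35.4% of all genes. In YAP-null 49 (43%) and 22 (19.1%) fell, against 29.3%. Rising members were 31 (27.2%) and 37 (32.2%) in WT, against 32.6% of all genes. In YAP-null they were 30 (26.3%) and 39 (33.9%), against 30.7%. More members fell than rose with KRAB, and fewer fell than rose without, under each of 15 settings, the main one included. They varied scaling, pseudocount, level threshold, fit and left-out library. The median of members with KRAB lay between -1.01 and -0.34 over these settings and that of members without between -0.13 and 0.21. The settings share genes and libraries and are not independent. Without a level threshold the same 114 and 115 members were counted, and the KRAB score cutoff was not varied. The difference between both sets of genes was not tested, since genes of 1 library are not replicates. KRAB members also had lower levels (medians of 4.41 FPKM in oocytes and 2.52 FPKM in embryos, against 5.65 and 6.64 FPKM without), more fingers (12 against 7) and shorter transcripts (2924 against 3532 bases).

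**Figure D3:**
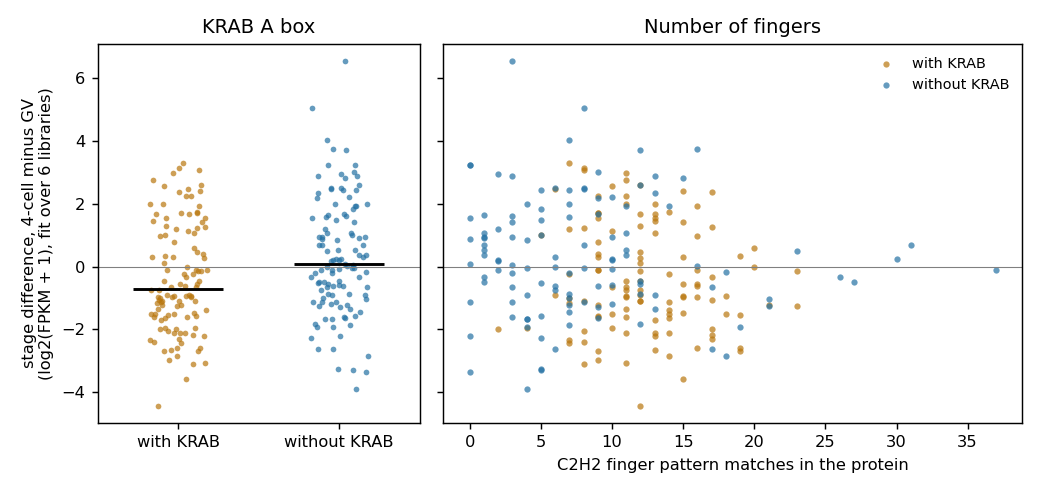
Stage difference of each member (y axis, log2(FPKM + 1), 4-cell minus GV, fitted over 6 libraries) by KRAB domain on the left and by number of C2H2 finger matches on the right. 1 point stands for 1 gene and bars are medians. The median is -0.70 with and 0.08 without KRAB, and members with 15 or more fingers rise seldom (7 of 49 called higher).

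The number of fingers was counted as matches to the spacing of C2H2 fingers (2 cysteines 2 to 4 residues apart, 12 residues, and 2 histidines 3 to 5 residues apart). The median was 10 matches and the highest 37, and 8 proteins had 0 matches, Zfp36 and Zfp259 among them. Of 33 members with 0 to 3 matches, 4 fell and 11 rose by the stage test, with a median difference of 0.54 (-0.10 over all genes). Of 77 with 4 to 9, 27 fell and 26 rose. Of 70 with 10 to 14, 21 fell and 21 rose. Of 49 with 15 or more, 17 fell and 7 rose, with a median of -0.55. Beside 27.8% lower and 28.2% higher over all genes, the classes with the fewest and the most fingers lean in opposite directions, and the difference between classes was not tested.

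Zfp genes lie in clusters, and 76 of the 230 members fell into 10 clusters of at least 5 members with gaps of at most 500 kb. Chromosome 7 held 59 members, chromosome 17 26 and chromosome 8 21. Falling and rising members are counted here by the stage test, which called 27.8% of all genes lower and 28.2% higher. The cluster with Zfp108 and Zfp61 (mm9 chr7:24866963-26012524) had 11 members, 6 with KRAB, of which 6 fell and 1 rose, with a median difference of -1.5. A cluster on chromosome 13 (mm9 chr13:67170334-67784449) held Zfp708, Zfp759, Zfp58, Zfp87, Zfp748 and Zfp738, all with KRAB, of which 2 fell and 0 rose. The largest cluster (mm9 chr17:21145905-22593656) had 14 members, all with KRAB, of which 3 fell and 3 rose. The next (mm9 chr7:30553571-30954746) had 12 members, 3 falling and 3 rising, with Zfp383 and Zfp568 at opposite ends of the scale within 1 cluster. Both clusters of 12 and more members thus held falling and rising neighbours, while the 6 members on chromosome 13 all had stage differences below 0. No cluster was tested against the others, and counts near the shares of all genes give no result about a cluster.

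Partners of KRAB proteins were followed in a list of 18 genes, of which 4 fell and 6 rose in the stage test (27.8% and 28.2% of all genes). With libraries rescaled to the same sum 3 fell and 6 rose, and with quantile normalization 5 and 5, so the counts give no result about the list. Trim28, the corepressor itself, was at 131 and 112 FPKM in WT and 102 and 106 FPKM in YAP-null oocytes and at 327 and 181 FPKM in WT and YAP-null embryos (difference 1.11 ± 0.35, limma adjusted p = 0.0356, and 0.0624 with quantile normalization). Setdb1, the H3 lysine 9 methyltransferase, fell from 70.7 and 83.5 FPKM in WT and 77.9 and 77.5 FPKM in YAP-null oocytes to 13.3 and 11.3 FPKM (-2.56 ± 0.30, limma adjusted p = 0.000901). The corepressor was thus higher and the methyltransferase lower in both embryos than in every oocyte library. Of the HP1 genes, Cbx3 and Cbx5 rose by 4.84 and 1.56 and Cbx1 fell by 1.09 on the log2 scale, a call lost with libraries rescaled to the same sum (limma adjusted p = 0.0559). Uhrf1 and Dnmt1, which maintain DNA methylation, fell by 4.20 and 3.85. Dnmt1 was at 1005 and 1041 FPKM in the oocyte libraries numbered 2 and near 200 FPKM in those numbered 1.

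Zinc finger genes named by other rules give a comparison. Of 34 Zbtb genes, 9 fell and 13 rose by the stage test, with a median difference of 0.09. Of 23 Zscan and Zkscan genes, 6 fell and 10 rose, with a median of -0.13. Of 24 Zc3h and Zcchc genes, 4 fell and 6 rose, with a median of 0.15. The shares of all genes were 27.8% lower and 28.2% higher, and the difference between these families and the members was not tested.

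By genotype, 178 members were in the same 2-fold class and 52 (22.6%) in different classes, where 24.3% of all genes were in different classes. Among the 57 members falling in both, 34 (59.6%) fell less in YAP-null, with medians of -2.24 in WT and -2.03 in YAP-null. Over all genes falling in both the share was 69.1% of 2831. Among the 61 members rising in both, 27 (44.3%) rose less in YAP-null, with medians of 2.23 and 2.25, where 63.0% of 3088 genes did. In the test of stage by genotype, in which each 4-cell library is assumed to vary like the oocyte libraries, 0 of 230 members passed (limma, smallest adjusted p = 0.288). At an unadjusted p under 0.05 there were 25 members (10.9%) and 1181 of all genes (10.3%), and 0.157% of all genes passed after adjustment. This does not show that the changes are alike, since 1 embryo library per genotype leaves their spread unknown.

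**Figure D4:**
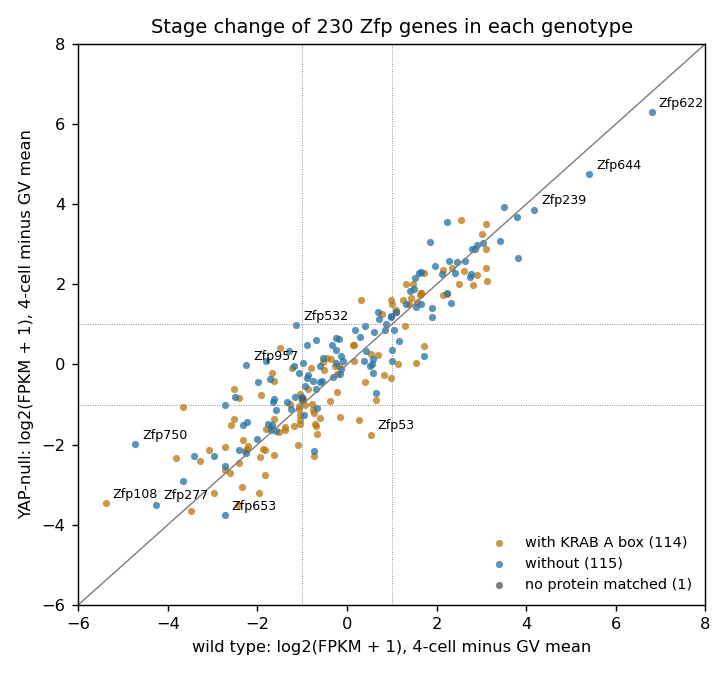
Stage change of each of the 230 members in WT (x axis) and YAP-null (y axis), both log2(FPKM + 1), 4-cell library minus the GV mean of that genotype. The solid line marks equal change and dotted lines mark 2-fold. Labelled genes include Zfp108 (-5.39 in WT, -3.47 in YAP-null), which lies off the line, and Zfp622 (6.80 and 6.30). Of the 230 members, 52 are in different 2-fold classes by genotype, and no member lies beyond 2-fold in opposite directions.

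Between the 4-cell libraries 28 members (12.2%) were at least 2-fold higher in YAP-null and 17 (7.39%) lower, against 16.7% and 8.80% of all genes. These are values of 1 library each and have no test. Of the 28, 22 (78.6%) were at least 2-fold lower in the WT embryo than in WT oocytes, and of all genes chosen the same way 80.1% were. Both counts rest on the same WT embryo value, so this overlap is built in. The stage test called 13 of the 28 lower and 2 higher. The oocyte markers given above also differed, summing to 148 FPKM (WT) and 923 FPKM (YAP-null) at the 4-cell stage, and their part in the result was not tested. The split depends on scaling: it was 20 higher and 20 lower with median-ratio scaling, 33 and 10 with libraries rescaled to the same sum, and 16 and 21 with quantile normalization. The median of all genes was 0.05 as deposited and -0.08, 0.21 and -0.05 under these scalings. The median of members was 0.11, -0.01, 0.26 and -0.06 in the same order. Shares of all genes past 2-fold were not counted under these scalings, so the splits there give no result about the members.

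Zfp957 differed strongly between the embryos. It was at 75.9 and 91.2 FPKM in WT and 78.0 and 93.2 FPKM in YAP-null oocytes (mm9 chromosome 14, 79612162 to 79647174). It was at 16.6 FPKM in the WT and 84.5 FPKM in the YAP-null embryo, so that the YAP-null embryo kept the oocyte level while the WT embryo did not. Zfp68 went from 33.6 and 40.7 FPKM in WT and 39.2 and 40.9 FPKM in YAP-null oocytes to 5.58 FPKM in the WT and 25.9 FPKM in the YAP-null embryo. Zfp46 stood at 9.02 to 11.4 FPKM over oocyte libraries, at 2.42 FPKM in the WT and at 9.89 FPKM in the YAP-null embryo. For these 3 genes the YAP-null embryo was at or near the oocyte values and the WT embryo was low. Zfp750, described above, had the largest difference, 2.80. Zfp532 and Zfp513 were above their oocyte values in the YAP-null embryo (14.6 against 6.16 to 9.63 FPKM, and 97.6 against 57.4 to 72.4 FPKM) and below them in the WT embryo (2.94 and 41.3 FPKM).

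Most members on either side of this difference were at low levels. Of the 17 lower in the YAP-null embryo, only 4 had a 4-cell mean of at least 5 FPKM, and 4 had a listed value of 0 in YAP-null. Of the 28 higher, 10 had such a mean and 1 had a listed value of 0 in WT. Zfp51 was at 21.9 FPKM in the WT and 8.88 FPKM in the YAP-null embryo, with oocytes at 6.96 to 10.9 FPKM. Zfp960 was at 18.9 and 7.63 FPKM, Zfp97 at 11.1 and 4.56 FPKM and Zfp948 at 8.38 and 3.46 FPKM in WT and YAP-null embryos. All 4 lie on chromosome 17, carry KRAB and were higher in the WT embryo than in any oocyte library. The 21 KRAB members on chromosome 17 were set apart after the values were seen. Of these, 8 (38.1%) were at least 2-fold lower in YAP-null and 3 (14.3%) higher, against 8.80% and 16.7% of all genes, without a test. The higher ones were Zfp677 (0.768 and 3.48 FPKM in WT and YAP-null), Zfp943 (1.64 and 4.58 FPKM) and Zfp946 (0.383 and 3.34 FPKM), named after their values were seen. Zfp820, on the same chromosome and with KRAB, and Zfp36 came next with 16.9 and 8.19 FPKM and with 23.3 and 11.4 FPKM, just under 2-fold on this scale. By protein, 14 of 114 members with KRAB were higher and 14 lower in YAP-null, and 14 of 115 without were higher and 3 lower. With quantile normalization these counts were 6 and 16, and 10 and 5, and the shares of all genes were not counted.

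**Figure D5:**
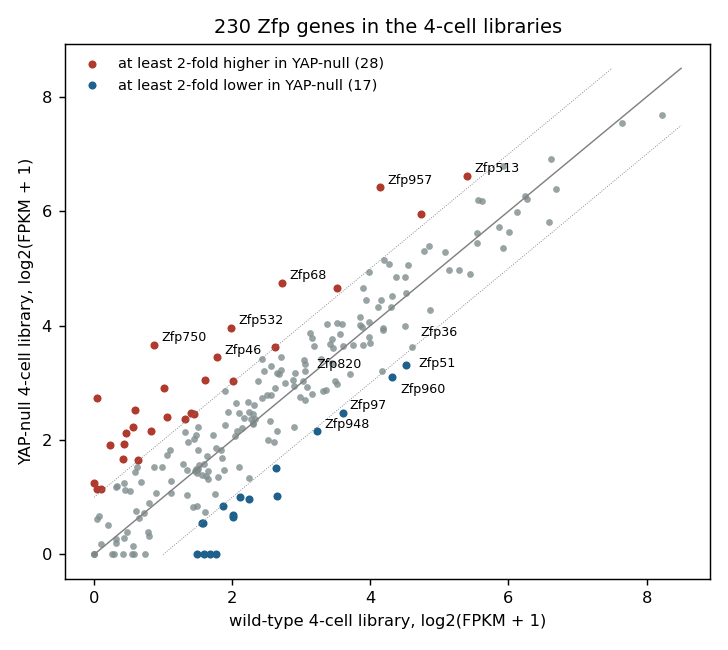
Level of each member in the WT (x axis) and YAP-null (y axis) 4-cell library, log2(FPKM + 1), 1 point per gene. The solid line marks equal levels and dotted lines 2-fold. Red points (28) are at least 2-fold higher and blue points (17) at least 2-fold lower in YAP-null, and the genes labelled include Zfp957 (16.6 and 84.5 FPKM) and Zfp51 (21.9 and 8.88 FPKM).

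In GV oocytes no member passed the test between genotypes. Of 204 members tested in the 4 oocyte libraries, 0 passed at an adjusted p under 0.05 and 0 had an unadjusted p under 0.05 (limma), where 0 of 10462 genes (0%) passed and 22 had an unadjusted p under 0.05. The median difference was 0.01. The YAP-null libraries both lay above both WT libraries for 20 of the 204 members (9.80%, with 5.10% over all genes tested) and below for 10 (4.90%, with 5.68%). Over all 230 members, including those with a GV mean under 1 FPKM, these counts were 25 and 11 (10.9% and 4.78%). The matching shares of all genes were not counted, so these give no result about the members. Among those apart, the largest differences were those of Zfp69, at 1.59 and 2.50 FPKM in WT and 4.46 and 3.74 FPKM in YAP-null, and of Zfp623, at 3.77 and 2.60 FPKM in WT and 1.41 and 2.43 FPKM in YAP-null. They amount to 0.76 ± 0.38 and -0.53 ± 0.40 (SE) on the log2(FPKM + 1) scale, within the spread of low values. Zfp53, Zfp583 and Zfp191 (Zfp24, needed for myelination) were higher by 0.68, 0.60 and 0.46, and Zfp27, Zfp617 and Zfp652 had differences of -0.50, -0.39 and -0.36. With the replicate number as a block, 0 members passed and 4 had an unadjusted p under 0.05.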

How the data were processed

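Polyadenylated RNA was sequenced in paired ends in 6 libraries. The authors deposited FPKM per gene with bounds around each value, as the file headers say. Per the submitters' processing notes, CASAVA 1.8, TopHat and build mm9 were used; no source used here names the quantifier or annotation. The 1 failed line was left out and 260 symbols at several loci were summed. Tests used limma 3.58.1 (limma-trend, R 4.3.3) on log2(FPKM + 1) over all genes of at least 1 FPKM, with a two-sided Benjamini-Hochberg adjusted p of 0.05: stage with genotype as covariate, genotype in GV oocytes, and stage by genotype. The fit was tested on simulated data.

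Members and lists were chosen with earlier results of these data known. The genes named are the 6 highest members per stage, the 8 largest falls and rises with the same direction in both genotypes, the 6 largest 4-cell differences per direction at a 4-cell mean of at least 5 FPKM, the 4 largest GV differences per direction without overlap, and the role lists. Proteins are the longest reading frames of GENCODE M21 transcripts and promoters are from RefSeq, both of GRCm38, matched by symbol only. Zfp939 had no match. Alternatives changed the pseudocount, level threshold, scaling, fold, GV mean, fit and the libraries used.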

Additional observations from a re-analysis of the deposited data

Results flagged for a closer look

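For 7 named members the stage change ran in opposite directions in the genotypes, with every GV library of a genotype on 1 side of its 4-cell library. Over all members 17 of 230 (7.39%) did so, and 604 of 11451 genes (5.27%). Of the 7, 6 had been named for a genotype difference, which makes such a pattern more likely, and Zfp207 qualifies narrowly, with 54.9 FPKM in the YAP-null embryo and 55.1 FPKM in the nearest oocyte library. The values are changes in YAP-null minus changes in WT on the log2(FPKM + 1) scale. The difference was -1.365 for Zfp191, -0.807 for Zfp207 and -2.282 for Zfp53, which were higher than oocytes in the WT embryo and lower in the YAP-null one. It was 1.903 for Zfp46, 1.298 for Zfp513, 2.125 for Zfp532 and 1.381 for Zfp652, which were the other way round. The limma test of stage by genotype passed for none of the 7, with adjusted p from 0.361 (Zfp46) to 0.754 (Zfp207). Each 4-cell value is 1 library, and the low ones among these genes, such as Zfp53, listed at 0 in the YAP-null embryo and at 2.03 FPKM in the WT embryo, rest on little signal.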

How the results depend on the processing

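No called stage difference of a named member changed sign under the alternatives run. Of 37 named members called, 30 were called under every setting with all libraries and 20 under every setting. Shares of all genes are not given for the moved counts below, so they give no result about the members. Counts moved by over 1.5 times as follows (WT falling and rising, YAP-null falling and rising where given). With pseudocount 5 they were 42, 40 and 33 (YAP-null falling), and 4-cell differences numbered 8 higher and 0 lower. With pseudocount 0.1 the 4-cell counts were 46 higher and 32 lower. At a mean of at least 5 FPKM, with fewer members, stage counts were 43, 36, 37 and 38, test calls 38 lower and 35 higher, and 5 members lower in the YAP-null 4-cell library. At 4-fold they were 36, 35, 32 and 38, with 4 higher and 0 lower in the YAP-null 4-cell library. Rescaling to the same sum left 10 lower and quantile normalization 16 higher there. Without a level threshold, where Zfp genes under 1 FPKM were tested too, 13 passed the test of stage by genotype. The share of all genes passing there is not given, so this count gives no result about the members, and its cause was not tested. Leaving out 1 library gave 31 to 65 lower and 37 to 64 higher members in the stage test. A replicate block in the GV test gave 0 members, with 2 of all genes (423 at an unadjusted p under 0.05, against 22 without it). Libraries numbered 1 deviated together (r = 0.849 over 10462 genes, a correlation across genes), but the labels do not say that a number marks a shared day or animal, and 2 numbers are too few to decide. Without fragment counts, differences of members near 1 FPKM are the least certain.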
